A study of Rattus norvegicus with 9 samples.

Results

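The core of the nuclear factor kappa B (NF-κB) pathway was examined in rat bone through 10 genes taken by symbol from the deposited tables. These were the subunit genes Nfkb1, Nfkb2, Rela, Relb and Rel, the inhibitor genes Nfkbia, Nfkbib and Nfkbie, and the kinase genes Ikbkb and Chuk. All 10 were present among the 23026 genes listed, and all 10 passed the filter on low counts, which kept 16874 genes. The 9 mRNA-seq libraries came from bone of female Sprague–Dawley rats that were 8 weeks old on arrival, with 3 libraries in each of 3 groups, which the study's methods describe as independent biological replicates. Sham rats were sham-operated, OVX rats had both ovaries removed, and OVX-AS-IV-High rats had both ovaries removed and were given 80 mg/kg astragaloside IV (AS-IV), a saponin of Astragalus. Gavage began 6 weeks after surgery and went on for 8 weeks. The Sham and OVX rats received sodium carboxymethyl cellulose (CMC-Na) alone, which the labels give as 1%, 2% and 3% for Sham 1, 2 and 3 and as 1% for the OVX rats, whereas the study's methods give a single strength for the vehicle. Estrogen loss after ovariectomy is used as a model of postmenopausal bone loss, so the first question was whether transcripts of this pathway differed after the operation, and the second whether they differed again with AS-IV.

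NF-κB is a family of dimeric transcription factors that sits inactive in the cytoplasm while bound to inhibitor proteins of the IκB class. Receptors such as those for tumour necrosis factor, interleukin 1 and RANKL activate the IκB kinases, which mark the inhibitors for degradation and release the dimers (the canonical arm), or drive the processing of the Nfkb2 product to its short form (the noncanonical arm). In bone the pathway is best known for its need in osteoclast formation downstream of RANK, and in marrow for the development and survival of B cells. Several of its own subunit and inhibitor genes are NF-κB targets, so transcript levels carry part of the feedback of the pathway. Nuclear entry, phosphorylation and degradation, by which the pathway is switched on, are not read by mRNA-seq.

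Stretches of promoter that resemble the DNA element bound by NF-κB are shown first, because several of these genes are known targets of the pathway they encode. RefSeq promoter windows on build GRCr8, reaching from 250 bases before to 50 bases after the annotated start, were held for 8 of the 10 genes, not for Relb and Ikbkb. The κB consensus, searched on both strands, matched in 5 of these 8 windows, in Nfkb1, Nfkb2, Rel, Nfkbia and Nfkbie, and not in Rela, Nfkbib or Chuk. Over the 13374 tested genes with a window the share holding a match was 10.3%, and over all 33469 windows it was 7.51%. Each matched site is printed on the strand of its gene with 9 flanking bases on each side, with capitals marking the matched bases.
Nfkb1, chr2:226805441-226805468, minus strand: gacgtcagtGGGAATTTCCagccaggaa
Nfkb2, chr1:255108345-255108372, plus strand: ggtattttcGGGACTTTCCtaagagcac
Rel, distal, chr14:101922138-101922166, minus strand: cgcgcccccGGGAGCTCCCCgcgcgagcg
Rel, proximal, chr14:101922001-101922029, minus strand: gtaggcagcGGGAAATCCCCccccgttcc
Nfkbia, chr6:78597085-78597112, minus strand: gactggcttGGAAATTCCCcgcgcctga
Nfkbie, chr9:22948018-22948045, minus strand: cagcaaacaGGGGGATTCCggaggggcg
The Nfkb1 site began 3 bases after the annotated start, and the others lay before it, at 20 bases for Nfkb2, 31 for Nfkbia, 164 for Nfkbie, and 219 and 82 for Rel. The Nfkbia site matched on the opposite strand, and each Rel site matched in 2 overlapping registers, one per strand. A match is a feature of the letters in the window, and binding was not measured here.

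The libraries held between 34874880 and 37298250 counts, so depth was even across groups. Values for 1 gene are given as CPM, the counts scaled to a common library size with TMM factors, and levels of different genes are compared as FPKM, which also divides by transcript length. Fold changes, standard errors (SE) and p-values come from edgeR's quasi-likelihood test on the counts, with all 9 libraries in 1 fit and adjustment by Benjamini-Hochberg over all 16874 genes. No gene of the 16874 had an adjusted p under 0.05 by edgeR in any of the 3 comparisons, while 2775, 1089 and 2978 had an unadjusted p under 0.05 in OVX vs Sham, OVX-AS-IV-High vs OVX and OVX-AS-IV-High vs Sham. DESeq2 gave 834, 37 and 1009 genes with an adjusted p under 0.05. The calls below rest on the unadjusted p of edgeR and are read against the share of all genes called in the same way. Bone markers were present, with the FPKM of 12 osteoblast and osteocyte markers summing to between 2212 and 6798 per library, and all of them above 3 counts in every library. The tissue was mixed, since marrow, fat and muscle markers were also detected, and in such bulk samples fewer cells of a type and less RNA per cell cannot be told apart.

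The inhibitor Nfkbia, which encodes IκBα, had the highest level of the 10 genes, with a median of 57.5 FPKM over the 9 libraries and a range from 41.1 to 101.2. Rela, encoding the transactivating subunit p65, followed at 29.1 FPKM, and its range of 25.3 to 31.96 lay wholly below that of Nfkbia. Ikbkb, the canonical kinase IKKβ, had a median of 27.7 FPKM, and Nfkb1, the precursor of p50, had 26.3 FPKM. These 3 genes overlapped in range over the 9 libraries, and also within OVX and within OVX-AS-IV-High. In Sham, however, Nfkb1 ran from 17.1 to 22.4 FPKM. That lay below Rela, at 28.4 to 29.8 FPKM, and Ikbkb, at 25.6 to 32.2 FPKM. A middle group was formed by Nfkbie (IκBε) at 14.7 FPKM, Chuk (IKKα) at 13.4, Nfkbib (IκBβ) at 12.6 and Nfkb2, the precursor of p52, at 8.52, each overlapping its neighbour in the order. Rel (c-Rel) at 5.61 FPKM and Relb, the usual partner of p52, at 5.31 were lowest, and the range of Rel, 3.67 to 5.93 FPKM, lay below that of Nfkb2, 6.77 to 10.98. All 10 genes were at or above the middle of the tested genes, from the 50.2nd percentile of median FPKM for Relb to the 92.7th for Nfkbia.

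The genes also differed in how much they varied. Rela was the steadiest, with a coefficient of variation of 7.03% over the CPM of the 9 libraries, a value below which 6.44% of tested genes fell. Ikbkb at 8.81% and Nfkbib at 9.25% were nearly as even. Nfkb2, Relb, Rel, Nfkbie and Nfkb1 lay between 14.0% and 19.6%. Chuk at 25.8% and Nfkbia at 32.5% were the most variable. In both, the libraries of a single group, OVX for Nfkbia and OVX-AS-IV-High for Chuk, covered most or all of the range.

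**Figure D1:**
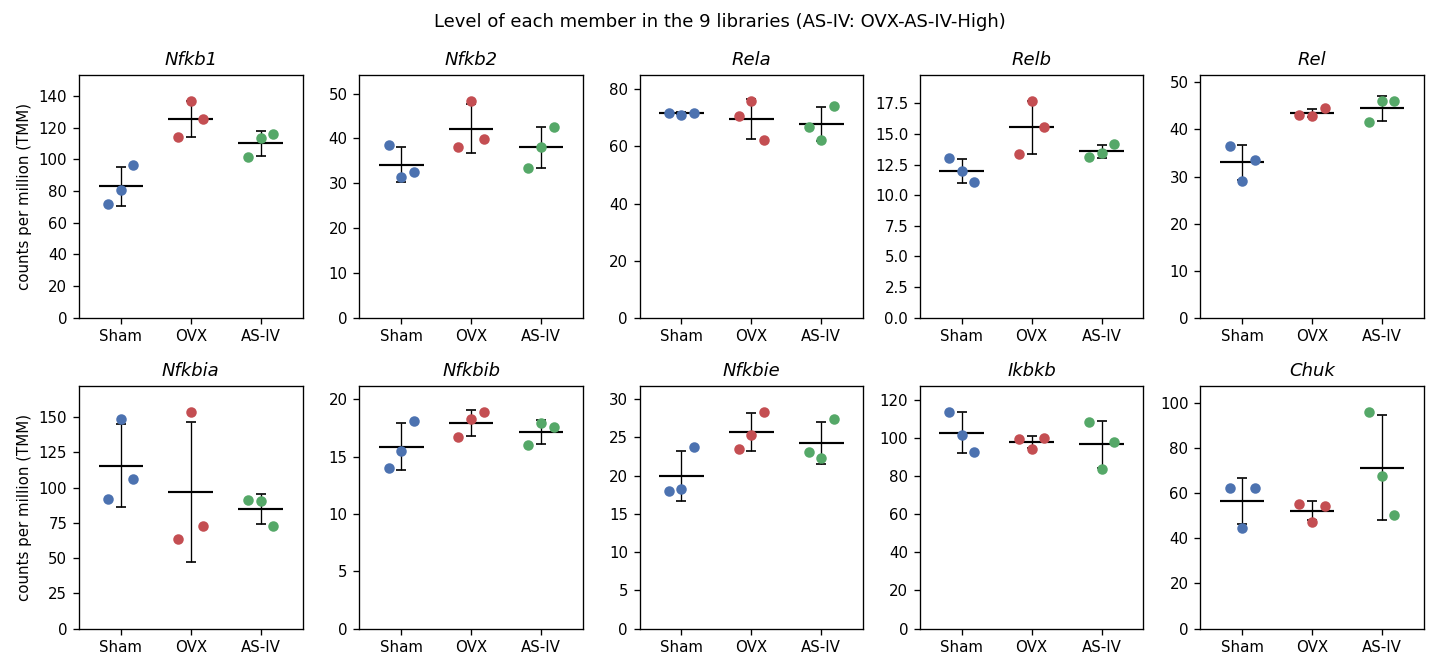
TMM-scaled CPM of each of the 10 genes (vertical axis, from 0) by group, 1 point per library, with the group mean as a horizontal bar and the SD of 3 libraries as the error bar. The 3 OVX libraries of Nfkb1, Rel and Relb lie above all 3 Sham libraries, the 3 Sham libraries of Rela lie within 1% of each other, and Nfkbia in OVX spans 63.6 to 154.0.

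After ovariectomy, 4 of the 5 subunit genes and 1 of the 3 inhibitor genes were higher than in Sham at an unadjusted p under 0.05, by 1.23- to 1.51-fold, and neither kinase gene differed at that level. In all, 5 of the 10 genes passed, all of them higher, where 16.4% of all tested genes passed in either direction and 8.16% were higher. The median log2FC of the 10 genes was 0.24, against -0.0062 for all tested genes. None reached an absolute log2FC over 1 with that p, which 3.11% of all genes did, and none had an adjusted p under 0.05. The libraries of the groups did not overlap for 3 of the 10 genes, all higher in OVX, where 23.3% of all genes did not overlap and 12.7% were higher without overlap.

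Nfkb1 showed the largest change of the 10. Its CPM were 72.1, 80.8 and 96.3 in the Sham libraries and 113.9, 137.0 and 125.5 in the OVX libraries. Every OVX library thus exceeded every Sham library, with group means of 125.5 ± 11.6 and 83.1 ± 12.3 (SD, n = 3 each). The fitted log2FC was 0.59 (SE 0.124), a 1.51-fold higher level with a 95% interval of 1.25 to 1.83. The unadjusted p was 0.000874 and the adjusted p 0.138, and 0.593% of tested genes had a smaller p. The call held with any 1 library left out, with log2FC between 0.50 and 0.72.

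Rel, whose product c-Rel is most abundant in lymphoid and myeloid cells, had CPM of 36.5, 29.1 and 33.5 in Sham and 43.0, 43.0 and 44.5 in OVX. The OVX values were close together, with an SD of 0.878, and all above the Sham values. The log2FC was 0.40 (SE 0.10, unadjusted p = 0.00304, adjusted p = 0.151), a 1.32-fold higher level with an interval of 1.13 to 1.54. Leaving out any 1 library kept the unadjusted p under 0.05. With DESeq2 in place of edgeR, Nfkb1 (adjusted p = 0.00218) and Rel (adjusted p = 0.0174) also passed after adjustment.

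Relb and Nfkb2, the pair of the noncanonical arm, had smaller and less settled differences. Relb CPM were 13.0, 11.9 and 11.04 in Sham and 13.4, 17.7 and 15.5 in OVX, without overlap but with only a small gap between Sham 1 and OVX 1. Its log2FC was 0.37 (SE 0.138, unadjusted p = 0.0236, adjusted p = 0.238). Nfkb2 CPM were 38.6, 31.4 and 32.4 in Sham and 38.2, 48.4 and 39.9 in OVX, so that Sham 1 exceeded OVX 1. Its log2FC was 0.30 (SE 0.134, unadjusted p = 0.0485, adjusted p = 0.301). The Relb call was lost without Sham 2 (unadjusted p = 0.0535), Sham 3 (unadjusted p = 0.0693), OVX 2 (unadjusted p = 0.0986) or OVX 3 (unadjusted p = 0.0535). The Nfkb2 call was lost without Sham 2 (unadjusted p = 0.144), Sham 3 (unadjusted p = 0.116), OVX 2 (unadjusted p = 0.191), OVX 3 (unadjusted p = 0.0581) or OVX-AS-IV-High 2 (unadjusted p = 0.0636). It was also lost under 7 of the 10 other settings, among them DESeq2 (unadjusted p = 0.0502).

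Rela was the subunit gene without a call. Its CPM were 71.8, 71.2 and 71.8 in Sham and 70.7, 76.0 and 62.2 in OVX, so the OVX values lay on both sides of the Sham values. The log2FC was -0.04 (SE 0.101, unadjusted p = 0.698, adjusted p = 0.858), and the 95% interval of the fold ran from 0.831 to 1.14. The upper end of that interval lay below the lower end of the interval of Nfkb1, 1.25, and overlapped the intervals of Rel, Relb and Nfkb2. A difference in response between Rela and the other subunit genes was not tested.

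Among the inhibitors, Nfkbie had CPM of 17.996, 18.2 and 23.8 in Sham and 23.5, 25.3 and 28.4 in OVX. Sham 3 reached into the OVX range. The log2FC was 0.36 (SE 0.143, unadjusted p = 0.0305, adjusted p = 0.258), and the call was lost without Sham 1 (unadjusted p = 0.101), Sham 2 (unadjusted p = 0.0937), OVX 2 (unadjusted p = 0.0550) or OVX 3 (unadjusted p = 0.110). Nfkbib, encoding IκBβ, had CPM of 14.0, 15.5 and 18.1 in Sham and 16.7, 18.3 and 18.9 in OVX, with a log2FC of 0.18 (SE 0.126, unadjusted p = 0.187).

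Nfkbia, the classic feedback target of the pathway, did not differ detectably between Sham and OVX, and its value depended on single libraries. Its CPM were 92.0, 148.5 and 106.4 in Sham and 63.6, 154.0 and 72.7 in OVX. The OVX 2 library stood at the top of all 9 while OVX 1 was the lowest. The log2FC was -0.26 (SE 0.316, unadjusted p = 0.436), with a 95% interval of the fold from 0.511 to 1.37. With each library left out in turn, the log2FC ran from -0.76 to -0.025. The value of -0.76 was the one without OVX 2 (unadjusted p = 0.00624, adjusted p = 0.320). The same OVX 2 library was also highest of the 9 for Nfkb1, Nfkb2, Relb and Rela.

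For the kinase genes the groups overlapped widely. Ikbkb CPM were 113.7, 101.7 and 92.6 in Sham and 99.3, 94.0 and 99.6 in OVX, a log2FC of -0.07 (SE 0.115, unadjusted p = 0.542). Chuk CPM were 62.4, 44.7 and 62.5 in Sham and 55.1, 47.4 and 54.5 in OVX, a log2FC of -0.11 (SE 0.222, unadjusted p = 0.626). The 95% interval of the fold was 0.795 to 1.14 for Ikbkb and wider for Chuk, 0.655 to 1.31.

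**Figure D2:**
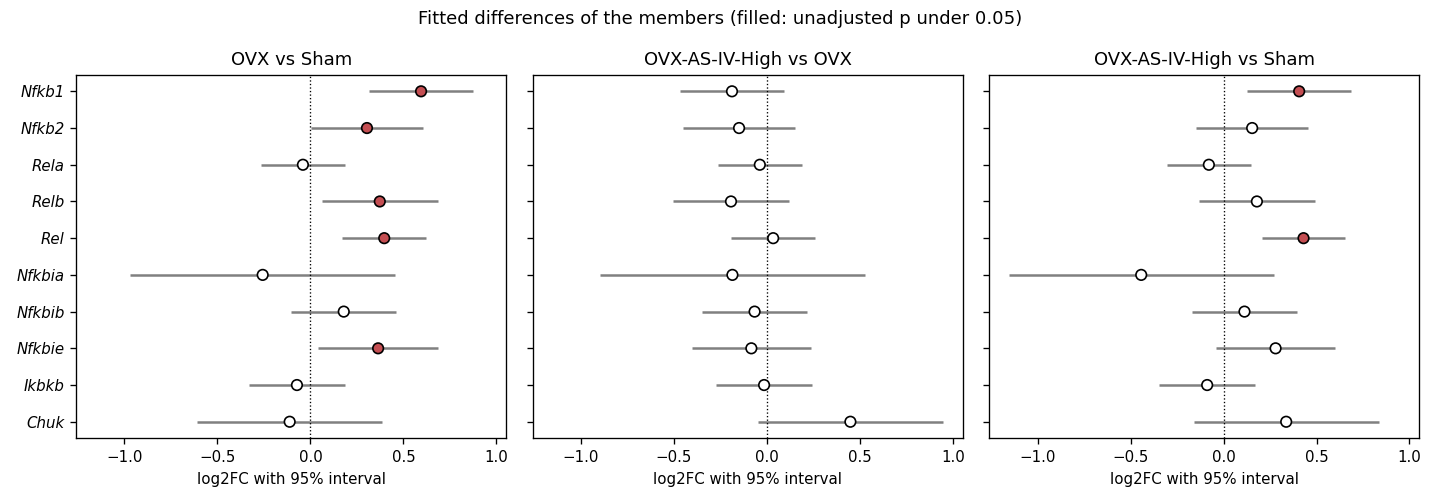
Fitted log2 fold change (horizontal axis) of each gene in the 3 comparisons, with its 95% interval as a bar and filled points for an unadjusted p under 0.05. In OVX vs Sham 5 points are filled, all to the right of 0, in OVX-AS-IV-High vs OVX none is filled, and in OVX-AS-IV-High vs Sham Nfkb1 at 0.41 and Rel at 0.43 are filled.

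**Figure D3:**
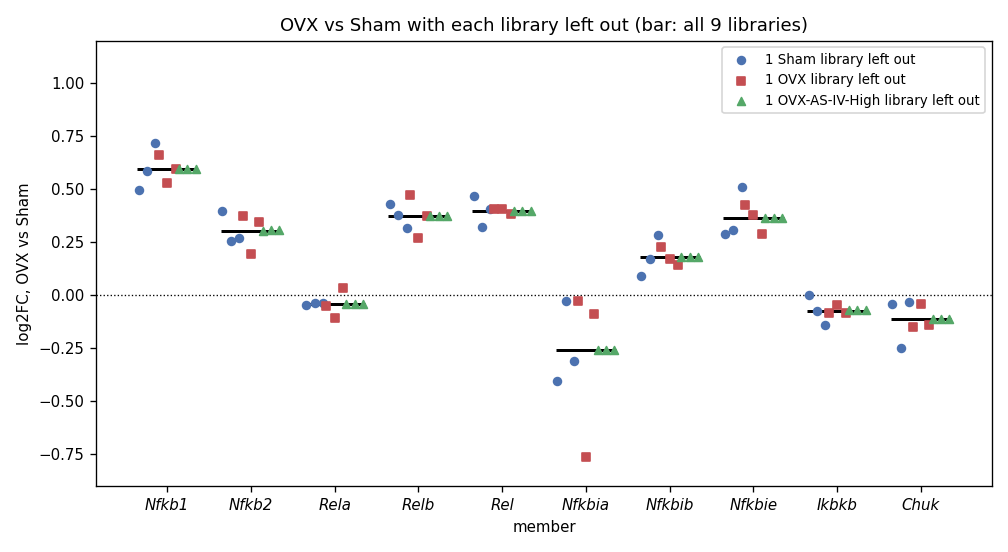
The log2 fold change of each gene in OVX vs Sham (vertical axis) with 1 library left out at a time, points coloured by the group of that library, and a bar for the value with all 9 libraries. Nfkb1 stays between 0.50 and 0.72 and Rel between 0.32 and 0.47, while Nfkbia moves from -0.26 to -0.76 when OVX 2 is left out.

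The balance between subunits, taken as the ratio of FPKM within a library and so free of any scaling between libraries, was compared next. Nfkb1 to Rela was 0.574, 0.649 and 0.767 in Sham and 0.921, 1.03 and 1.155 in OVX. Rel to Rela was 0.160, 0.129 and 0.147 in Sham and 0.192, 0.178 and 0.226 in OVX. Relb to Rela was 0.176, 0.163 and 0.150 in Sham and 0.184, 0.226 and 0.243 in OVX. All 3 ratios were higher in every OVX library than in every Sham library. Nfkb1, Rel and Relb are the 3 genes whose CPM did not overlap, and Rela had a log2FC of -0.04. The ratios therefore largely restate that result, and no share over all genes was computed for them. Nfkb1 to Rela was not among the planned ratios. An exact permutation test of 3 against 3 libraries cannot give a p below 0.1, so these ratios are descriptions. Nfkb2 to Nfkb1 overlapped between the groups, at 0.318 to 0.505 in Sham and 0.300 to 0.333 in OVX. Nfkbia to Rela ranged from 2.00 to 3.26 in Sham and from 1.40 to 3.17 in OVX, so the inhibitor transcript exceeded that of Rela in every library.

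**Figure D4:**
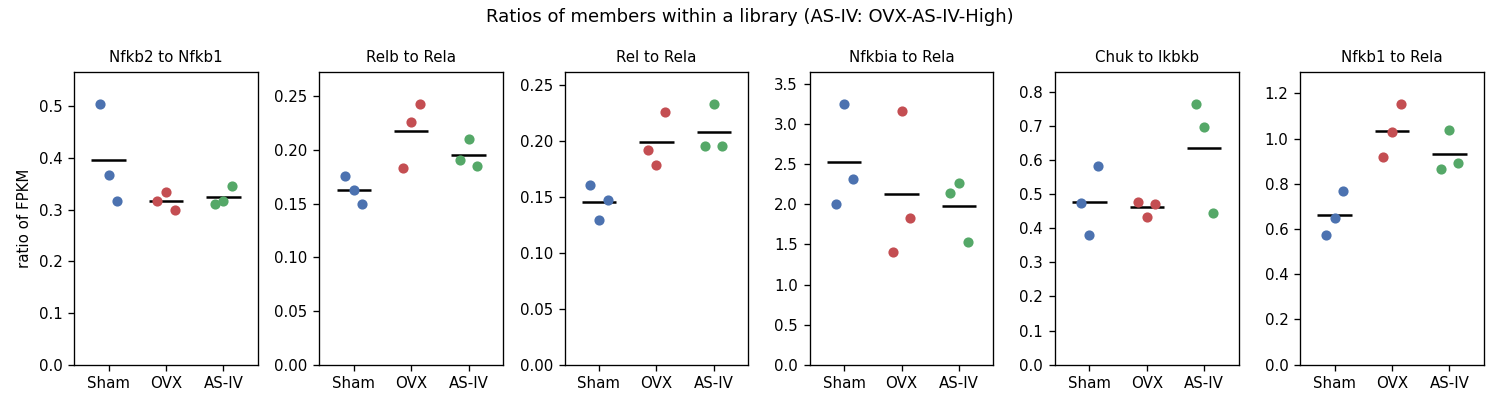
Ratios of FPKM between pairs of these genes within each library (vertical axes, from 0), 1 point per library and a bar for the group mean. Nfkb1 to Rela runs from 0.574 to 0.767 in Sham and from 0.921 to 1.155 in OVX, and Chuk to Ikbkb spans 0.445 to 0.767 in the OVX-AS-IV-High libraries.

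With AS-IV, none of the 10 genes differed from OVX at an unadjusted p under 0.05, where 6.45% of all tested genes did, 4.42% higher and 2.03% lower. None of the 10 had groups without overlap, where 12.7% of all genes did. DESeq2 also called none of them. The fitted values were above 0 for 2 of the 10, Rel and Chuk, against 46.7% of all genes, with a median log2FC of -0.08 against -0.02 for all genes, and none of the intervals excluded 0. The OVX libraries in this comparison are the ones used against Sham, so the values of both comparisons are not independent.

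With AS-IV, Nfkb1 CPM were 101.3, 113.3 and 115.8, of which 2 lay below the lowest OVX value of 113.9 and 1 lay above it. The log2FC against OVX was -0.19 (SE 0.123, unadjusted p = 0.160), and the interval of the fold, 0.724 to 1.06, left room for no difference as well as for a level 0.724 times that of OVX. Rel CPM were 41.5, 46.1 and 46.0, on both sides of the OVX values, with a log2FC of 0.03 (SE 0.0997, unadjusted p = 0.746). Relb CPM of 13.1, 13.5 and 14.2 overlapped the lowest OVX library only, with a log2FC of -0.19 (SE 0.138, unadjusted p = 0.192). Nfkb2 (33.4, 38.02 and 42.6 CPM) and Rela (66.8, 62.3 and 74.2 CPM) had log2FC of -0.15 and -0.04.

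For the inhibitors, Nfkbia CPM were 91.6, 90.7 and 72.9 with AS-IV, inside the wide OVX range. Its log2FC was -0.19 (SE 0.316, unadjusted p = 0.570), and the sign depended on OVX 2, since without that library the value was 0.32 (unadjusted p = 0.160). Nfkbib (16.0, 17.9 and 17.6 CPM) and Nfkbie (23.1, 22.3 and 27.4 CPM) had log2FC of -0.07 and -0.08.

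Chuk had the largest fitted difference with AS-IV and the widest spread. The AS-IV libraries held 96.2, 67.7 and 50.3 CPM, so that 2 of the 3 lay above all OVX values and 1 lay among them. The log2FC was 0.45 (SE 0.222, unadjusted p = 0.0727, adjusted p = 0.818), with an interval of the fold from 0.966 to 1.93. Without OVX-AS-IV-High 3 it was 0.65 (unadjusted p = 0.00899, adjusted p = 0.308), and without OVX-AS-IV-High 1 the value fell to 0.17. Ikbkb CPM were 108.3, 83.9 and 97.6, a log2FC of -0.02 (SE 0.115, unadjusted p = 0.895). Chuk to Ikbkb in FPKM was 0.767, 0.697 and 0.445 with AS-IV, against 0.479, 0.435 and 0.472 in OVX. Nfkb1 to Rela was 0.866, 1.04 and 0.893 with AS-IV, which overlapped the OVX ratios and lay above those of Sham.

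Against Sham, the OVX-AS-IV-High libraries were higher for Nfkb1 and Rel, 2 of the 10 genes, where 17.6% of all tested genes passed in either direction and 9.17% were higher. Rel had a log2FC of 0.43 (SE 0.10, unadjusted p = 0.00183, adjusted p = 0.107), a 1.35-fold higher level. Nfkb1 had a log2FC of 0.41 (SE 0.124, unadjusted p = 0.00893, adjusted p = 0.159), a 1.33-fold higher level. Both calls held with any 1 library left out, and both passed after adjustment with DESeq2, at 0.00539 for Rel and 0.0427 for Nfkb1. Groups without overlap were found for 4 of the 10 genes, where 19.9% of all genes had none. These were Nfkb1, Rel and Relb, higher with AS-IV (9.61% of all genes), and Nfkbia, lower with AS-IV (10.3% of all genes) by the narrow gap between 91.6 and 92.0 CPM. Nfkbia had a log2FC of -0.44 (SE 0.316, unadjusted p = 0.194) and passed in 1 setting, without OVX 2 (unadjusted p = 0.0414), which is not a library of this comparison but enters the shared estimate of spread. Nfkbie had a log2FC of 0.28 (SE 0.143, unadjusted p = 0.0808) and passed without Sham 3 (log2FC 0.42, unadjusted p = 0.0120). Chuk had a log2FC of 0.34 (SE 0.222, unadjusted p = 0.161) and passed without OVX-AS-IV-High 3 (log2FC 0.54, unadjusted p = 0.0220).

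Markers of the B lineage, in which p50 and c-Rel are well expressed, were also higher in OVX than in Sham. All 7 B lineage markers tested, among them Cd79a (log2FC 0.73, unadjusted p = 0.00238) and Pax5 (0.38, unadjusted p = 0.00831), were higher in OVX at an unadjusted p under 0.05, with a median log2FC of 0.68, and of these only the Rag1 call was lost with a library left out, Sham 1 (unadjusted p = 0.0792), Sham 2 (unadjusted p = 0.0729), OVX 2 (unadjusted p = 0.0614) or OVX 3 (unadjusted p = 0.0594). Their FPKM summed to 385, 376 and 504 for the Sham libraries, 690, 725 and 683 for OVX, and 439, 509 and 666 for AS-IV. Cd79a made up 54.4% to 58.0% of these sums. Without Cd79a the other 6 markers summed to 171 to 211 FPKM in Sham and 287 to 309 in OVX, which did not overlap. With AS-IV these 6 summed to 194 to 288 FPKM. In each group the library with the highest B lineage sum, Sham 3, OVX 2 and OVX-AS-IV-High 3, was also the one with the highest Nfkb1 level. With AS-IV the remaining libraries followed the same order, with Nfkb1 at 101.3, 113.3 and 115.8 CPM. Sham 1 had less Nfkb1 than Sham 2, and OVX 1 less than OVX 3, each with a slightly higher sum. Those sums lay close together, at 385 and 376 FPKM for Sham and 690 and 683 for OVX. With AS-IV, 4 of the 7 B lineage markers were lower than in OVX. Of these only the Pax5 call (log2FC -0.40, unadjusted p = 0.00674) held with any 1 library left out. None of these 7 markers was at or under 3 counts in any library, and Vpreb1, the other marker listed, had no row in the tables used here.

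Sums over other markers also rested in part on single genes. The sum of 7 monocyte and macrophage markers ran from 4399 to 4660 FPKM in Sham, from 5885 to 6606 in OVX and from 5099 to 6044 with AS-IV, but Lyz2 made up 95.7% to 97.8% of it. Without Lyz2 the other 6 markers summed to 106 to 188 FPKM in Sham and 161 to 187 in OVX, which overlapped. That of 8 T and NK cell markers ran from 142 to 159, 178 to 246 and 180 to 204, in the same order of groups, with OVX 2 at the top. Nkg7 alone had 92.7 to 124 FPKM in Sham and 139 to 167 in OVX. Without it the other 7 markers summed to 34.7 to 59.4 and 39.8 to 79.5 FPKM, which also overlapped. The top of the OVX range was OVX 2 alone, with 39.8, 79.5 and 49.5 FPKM across OVX 1 to 3. Cd8a, for example, stood at 6.3, 24.6 and 6.5 CPM in these libraries. The sum of 10 skeletal muscle markers was 5821, 4222 and 1010 FPKM across Sham 1 to 3, against 2204, 1185 and 1040 across the OVX libraries and 3124, 1352 and 367 across those with AS-IV, so that Sham 1 and Sham 2, the libraries lowest for Nfkb1, held the most muscle RNA. All 7 adipocyte markers were higher in OVX, with a median log2FC of 1.35, and of these only Cidec lost its call with a library left out, Sham 1 (unadjusted p = 0.0552), Sham 2 (unadjusted p = 0.0502) or OVX 2 (unadjusted p = 0.0763). The sum of 8 osteoclast markers was 355, 638 and 1083 FPKM across Sham 1 to 3 and 665, 1235 and 1310 across OVX 1 to 3, which overlapped. It was 531, 961 and 1284 with AS-IV. Ctsk made up 54.8% to 70.9% of this sum. None of the 8 was called in OVX vs Sham, and their median log2FC was 0.46. The part of these cell types in the differences of the 10 genes was not tested.

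**Figure D5:**
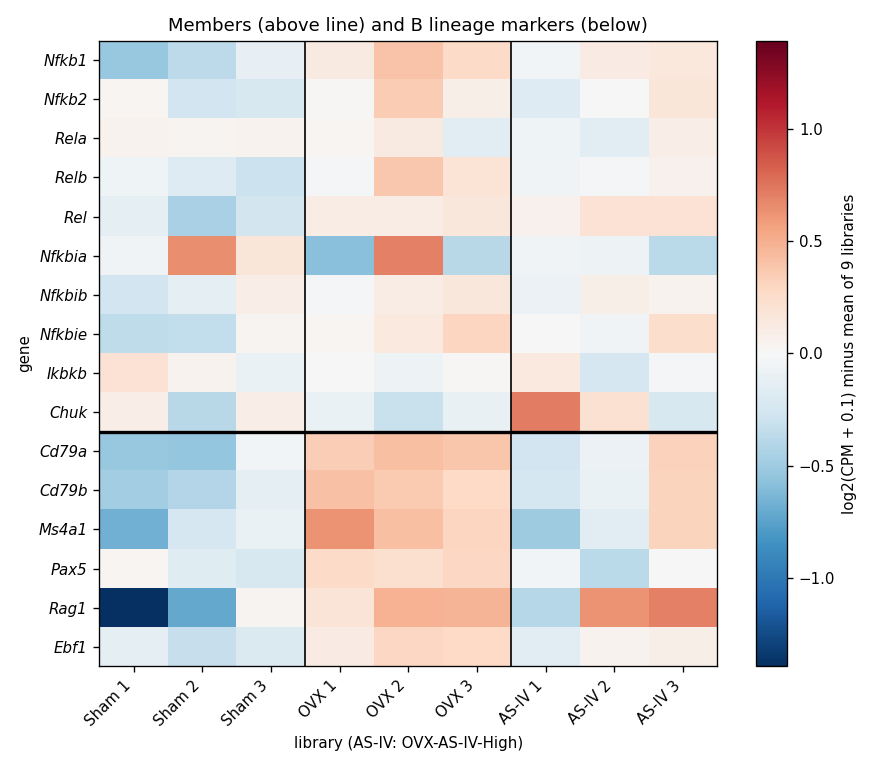
Heat map of log2(CPM + 0.1) minus the mean over the 9 libraries for the 10 genes (above the line) and 6 of the B lineage markers (below), with libraries as columns and red for values above the mean. Nfkb1 and the B lineage markers are mostly blue in the Sham columns and red in the OVX columns, Rela is pale throughout, and Nfkbia is reddest in Sham 2 and OVX 2.

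The 10 genes did not move as 1 block across libraries. Over log2 CPM of the 9 libraries, which include the differences between groups, the closest pairs were Nfkb2 and Relb (Pearson r = 0.89), Nfkb1 and Nfkbie (0.88) and Nfkb1 and Nfkbib (0.86), and the most opposed were Nfkbib and Ikbkb (-0.75). Among all tested genes, those whose pattern was most like that of Nfkb1 included Jak1 (0.991) and Ikzf3 (0.985), a lymphoid transcription factor. For Rel the closest were Mycbp (0.983), Txnrd1 (0.966) and Prkacb (0.964), and for Relb Ncstn (0.957), Plcg2 (0.948), a phospholipase of B cell receptor signalling, and Porcn (0.933). For Nfkb2 they were Elapor2 (0.973), Nr2c2ap (0.945) and Arl5c (0.941). Rela had no gene as close, its best being Rpl30l2 (0.922), Washc1 (0.893) and Nepro (0.891). The nearest were LOC120101643 (0.958), Eva1a (0.948) and Dppa4 (0.938) for Nfkbia, and Entpd3 (0.984) was among the nearest for Nfkbib. They were Khdrbs1 (0.982), Tmprss3 (0.977) and LOC120099218 (0.974) for Nfkbie. They were Zfp523 (0.962), LOC102555426 (0.955) and Mrps18b (0.954) for Ikbkb, and Nudcd2 (0.970), Zfp24 (0.967) and Eif1ax (0.963) for Chuk. With 9 points and 16874 genes, such values describe likeness of pattern only.

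The rest of the pathway was read from 6 lists, each as the number of genes at an unadjusted p under 0.05. Over the 6 lists together, 21 of 93 tested genes (22.6%) were called in OVX vs Sham, against 16.4% of all tested genes, with 14 higher, where 8.16% of all genes were, and 7 lower. In OVX vs Sham, 2 of 8 atypical IκB and IKK genes were higher and 1 lower. Ikbkg, which encodes NEMO, the regulatory subunit that completes the kinase complex with the products of Chuk and Ikbkb, was higher (log2FC 0.40, SE 0.147, unadjusted p = 0.0237), a call lost without Sham 1 (unadjusted p = 0.0888), Sham 2 (unadjusted p = 0.0700) or OVX 3 (unadjusted p = 0.0785). Nfkbid (0.33, unadjusted p = 0.0438) and the IKK-related kinase Ikbke (-0.50, unadjusted p = 0.0298) were called too. The Nfkbid call was lost without any library other than Sham 1, and that of Ikbke without Sham 1, Sham 2 or any OVX library. Map3k14, encoding the noncanonical kinase NIK, had a log2FC of 0.04 (unadjusted p = 0.746).

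Among 12 receptors, 2 were higher in OVX. Tnfrsf13c, the BAFF receptor of B cells and an activator of the noncanonical arm, had a log2FC of 0.78 (SE 0.199, unadjusted p = 0.00320), and Il1rap, the shared interleukin 1 receptor subunit, 0.45 (SE 0.129, unadjusted p = 0.00646), both with any 1 library left out. Tnfrsf11a, encoding RANK, had a log2FC of -0.26 (SE 0.288, unadjusted p = 0.387), and its ligand gene Tnfsf11 0.20 (SE 0.319, unadjusted p = 0.538). None of 9 ligands tested was called. Of 24 adaptors and upstream kinases 3 were higher, among them Birc2, encoding a ubiquitin ligase of the tumour necrosis factor receptor complex (log2FC 0.28, SE 0.0932, unadjusted p = 0.0139). The Birc2 call was lost without Sham 1 (unadjusted p = 0.0534) or OVX 3 (unadjusted p = 0.0590). The list medians lay between 0.05 for the adaptors and 0.15 for the receptors, below the 0.24 of the 10 genes.

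Negative regulators and targets moved in both directions. Of 14 negative regulators 4 were higher and 2 lower in OVX, among them Tnip1 (0.24, unadjusted p = 0.0106) and Tnip2 (-0.41, unadjusted p = 0.00738), which both encode partners of the deubiquitinase A20 and both held with any 1 library left out. Tnfaip3, the A20 gene and a direct NF-κB target, was higher (log2FC 0.60, SE 0.207, unadjusted p = 0.0177), and without OVX 2, the library at the top for Nfkbia, its log2FC was 0.28 (unadjusted p = 0.0531), while without Sham 1 the p was 0.0615. Of 26 targets 3 were higher and 4 lower, where 8.16% of all genes were higher and 16.4% were called in either direction. Birc3, encoding an inhibitor of apoptosis, was higher (log2FC 0.73, SE 0.174, unadjusted p = 0.00205), Ptgs2, the cyclooxygenase gene, was lower (-1.36, SE 0.346, unadjusted p = 0.00329) and so was Junb (-0.39, SE 0.124, unadjusted p = 0.0112), all with any 1 library left out. The target list had a median log2FC of 0.08.

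With AS-IV against OVX, 14 of the 93 list genes (15.1%) were called, 9 higher and 5 lower, against 6.45% of all tested genes, 4.42% higher and 2.03% lower. All 6 lists held at least 1 of them. Of 26 targets 3 were higher and none lower, namely Ptgs2 (log2FC 1.61, SE 0.348, unadjusted p = 0.00112), Junb (0.41, SE 0.124, unadjusted p = 0.00836) and Xiap (0.50, SE 0.141, unadjusted p = 0.00563), and all 3 calls held with any 1 library left out. Ptgs2 stood at 14.0, 5.1 and 9.5 CPM with AS-IV, against 3.2, 2.4 and 3.8 in OVX and 8.6, 6.5 and 8.8 in Sham, low levels without overlap between OVX and either other group. Of 14 negative regulators 2 were higher and 2 lower. Itch, a ubiquitin ligase that works with A20, was higher (0.31, SE 0.0913, unadjusted p = 0.00776) with any 1 library left out, and Tnfaip3 was lower (-0.56, SE 0.207, unadjusted p = 0.0238) but not without OVX 2 (-0.24, unadjusted p = 0.0867) or without OVX-AS-IV-High 1 (unadjusted p = 0.0536) or 2 (unadjusted p = 0.0597). Of the 12 receptors 1 was higher and 2 lower, with Tnfrsf13c lower (-0.58, unadjusted p = 0.0166) except without OVX 1 (unadjusted p = 0.0805) or OVX-AS-IV-High 1 (unadjusted p = 0.0561). Of the other lists 1 of 8 atypical IκB and IKK genes and 1 of 9 ligands were higher, and of 24 adaptors 1 was higher and 1 lower.

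Against Sham, 19 of the 93 list genes (20.4%) were called in the OVX-AS-IV-High libraries, 13 higher and 6 lower. This was close to the 17.6% of all tested genes called. Of all 16874 genes, 1547 (9.17%) were higher and 1431 lower, and the counts per list below are to be read against these. Itch had the smallest p of the list genes, with 125.8, 115.8 and 103.1 CPM with AS-IV, against 96.9, 88.7 and 92.8 in OVX and 77.1, 77.4 and 76.4 in Sham. The 3 groups did not overlap, and the log2FC against Sham was 0.58 (SE 0.0916, unadjusted p = 0.000120, adjusted p = 0.0748). Il1rap (0.59, unadjusted p = 0.00115) and Tlr2 (0.62, unadjusted p = 0.00664) were higher too, with any 1 library left out. Of the 12 receptors 2 were higher and 2 lower, of 9 ligands 2 higher, of 24 adaptors 3 higher and 1 lower, of 14 negative regulators 2 higher and 1 lower, of 26 targets 3 higher and 2 lower, and of 8 atypical IκB and IKK genes 1 was higher. Tnfrsf11a was lower (-0.69, SE 0.290, unadjusted p = 0.0403), a call lost without Sham 3 (log2FC -0.36, unadjusted p = 0.202), OVX 2 (unadjusted p = 0.0501), or any of OVX-AS-IV-High 1 (unadjusted p = 0.113), 2 (unadjusted p = 0.0568) and 3 (unadjusted p = 0.0691).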

How the data were processed

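The 9 libraries were prepared by the submitters as strand-specific mRNA-seq from bone. Counts (whole numbers, not normalised) and FPKM values, each with 1 column per library, were deposited for the same genes, made with NGS QC Toolkit, TopHat, Bowtie2 and eXpress per the study's methods and on mRatBN 7.2 per the labels; how eXpress estimates became whole counts is not given in the sources used here. Columns of no labelled sample numbered 0. From the counts, genes passing filterByExpr (minimum count 10) were TMM-scaled and tested with edgeR 4.0.16 (glmQLFit, glmQLFTest; R 4.3.3), all 9 libraries in 1 fit without covariates. SE was the log2FC divided by the square root of F, and intervals of 95% used the fitted degrees of freedom. Benjamini-Hochberg adjustment ran over all 16874 genes. FPKM served for levels, ratios and marker sums. Alternatives used DESeq2 1.42.0, limma 3.58.1 on log2(FPKM + 1) and log2(FPKM + 0.1), other scalings and filters, the 2 compared groups alone, a replicate block, and each library left out. Scripts were tested on simulated data.

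The 10 genes and all lists were chosen with earlier results of these data known. Genes named were the 10, up to 4 genes per list and comparison with the smallest unadjusted p under 0.05, the 3 most like each of the 10, and Tnfrsf11a, Tnfsf11, Tnfaip3, Map3k14 and Ikbkg in any case. Of the listed genes, Lta, Il6, Csf2, Ltf and Gzma did not pass the filter, and Vpreb1 had no row. Deviations from the group means were correlated across genes between same-numbered libraries, for replicates 1, 2 and 3 in turn. The correlations were 0.310, 0.158 and 0.130 for OVX-AS-IV-High and OVX. They were 0.200, -0.161 and 0.253 for OVX and Sham, and 0.314, -0.158 and 0.435 for OVX-AS-IV-High and Sham. Only the sign for replicate 2 set the first pair of groups apart, so no pairing was established. A block on the replicate number was run as an alternative. Promoter sequences came from RefSeq windows on GRCr8, another build than that of the files, and protein sequences were not analysed here. A few genes that the naming rule covers are not reported here.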

Additional observations from a re-analysis of the deposited data

How the results depend on the processing

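In OVX vs Sham the count of the 10 genes with an unadjusted p under 0.05 was 5. With 1 library left out it ran from 2 to 5 (2 without Sham 2 or OVX 3, 3 without Sham 3 or OVX 2). Without OVX 2 the count held Nfkb1 and Rel, both higher, and Nfkbia, which was lower (log2FC -0.76). In OVX-AS-IV-High vs OVX it was 0, and from 0 to 1, the 1 being Chuk without OVX-AS-IV-High 3. In OVX-AS-IV-High vs Sham it was 2, and from 2 to 3. The count with an adjusted p under 0.05 was 0 by edgeR, and 2 with DESeq2 in OVX vs Sham and 2 with DESeq2 in OVX-AS-IV-High vs Sham; the cause was not tested. Other scalings, filters and the 2 groups alone left these counts within 1.5 times.

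Signs changed only near 0, apart from Nfkbia. Rel in OVX-AS-IV-High vs OVX was -0.0015 with library totals only, -0.0031 with limma on log2(FPKM + 1) and -0.0039 with log2(FPKM + 0.1). With 1 library left out, OVX vs Sham ran from -0.11 to 0.036 for Rela and from -0.14 to 0.00065 for Ikbkb. OVX-AS-IV-High vs OVX ran from -0.11 to 0.028 for Rela, from -0.41 to 0.32 for Nfkbia and from -0.11 to 0.075 for Ikbkb, and OVX-AS-IV-High vs Sham from -0.18 to 0.0044 for Ikbkb.

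The replicate block changed no call in OVX-AS-IV-High vs OVX, with 0 of the 10 genes called with all groups. With the 2 groups alone, a fit added after seeing the data, it also called 0. The block gave 4 of 10 in OVX vs Sham. In OVX-AS-IV-High vs Sham it gave 3 of 10, with Nfkbie passing (log2FC 0.29, unadjusted p = 0.0167). Over all genes it gave 3677 instead of 2775 in OVX vs Sham at an unadjusted p under 0.05. The numbers were 3705 instead of 2978 in OVX-AS-IV-High vs Sham, and 1310 instead of 1089 in OVX-AS-IV-High vs OVX. Leaving out a library shortens a group to 2, so lost calls also reflect fewer samples. At 3 libraries a group, intervals for Nfkbia and Chuk could not exclude changes of more than 1.3-fold in either direction in OVX vs Sham.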
